A study of Rattus norvegicus with 43 samples.

Results

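The genes described here are 10 genes of glutathione metabolism and of the detoxification programme governed by the transcription factor NRF2: Gsta4, Gstm1, Gstm2, Gstp1, Nqo1, Gclc, Gclm, Txnrd1, Srxn1 and Gpx1. They were chosen by symbol, because Gsta4 had a very large spread between animals in these data. All 10 were measured, by 14 of the 31099 probe sets, out of 14217 genes with a probe set of their own. Each gene is given by its probe set with the highest mean. The others, 1 for Gclc, 1 for Txnrd1 and 2 for Srxn1, are given beside it. One Srxn1 probe set was too dim to be tested, with a median intensity of 7.8, and the other 13 were tested.

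The arrays came from the anterior pituitary gland of 43 male F2 rats, bred from COP (Copenhagen) females and ACI males through an F1 intercross. Every animal carried diethylstilbestrol (DES), a synthetic estrogen, as a 5 mg Silastic implant under the skin from 9 weeks of age, was treated for 12 weeks and was sacrificed at 21 weeks. Every animal was also injected with 50 mg/kg bromodeoxyuridine, a label of dividing cells, 4 hours before sacrifice. By the design text they were picked from both ends of the population's range of pituitary weight, 22 heaviest and 21 lightest, but no label says which animal is which. The 43 arrays are therefore 1 group, 1 animal per array, with no untreated animals to compare, and genotypes were not used here. Values in animals chosen for extreme weights need not describe the whole population. Animals are named by the number in their label.

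Glutathione is a small thiol that cells use to neutralise peroxides and reactive electrophiles. Glutathione transferases attach it to electrophiles, glutamate-cysteine ligase makes its precursor, and peroxidases and the thioredoxin system reduce peroxides and oxidised proteins. NRF2, encoded by Nfe2l2, is held back by KEAP1 in unstressed cells and, once released, activates many of these genes through antioxidant response elements in their promoters. Enzymes of these classes are made in most tissues.

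The short sequences below are shown because the antioxidant response element is the DNA motif by which NRF2 acts. RefSeq promoter windows of assembly GRCr8 were found for all 10 genes, and the 250 bases before the start were searched on both strands for the element's core, TGACNNNGC. The core was found in a window of Gstp1, Gclm and Txnrd1, the last in 1 of its 2 windows. Of 33469 promoter windows in the table, 10.08% held it. A related motif, the AP-1 core TGANTCA, which overlaps the first motif in Gstp1, was also found in Srxn1, and 6.34% of windows held it. Neither was found in the windows of Gsta4, Gstm1, Gstm2, Nqo1, Gclc and Gpx1, which says only that these letters are not in those windows. Each line is read 5′ to 3′ on the gene's strand, with the match in capitals. In Gclm and Txnrd1 the core is read on the opposite strand.
Gstp1, chr1:210769748-210769776, minus strand: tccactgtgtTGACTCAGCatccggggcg
Gclm, chr2:213031953-213031981, plus strand: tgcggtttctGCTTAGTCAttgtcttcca
Txnrd1, chr7:22755964-22755992, minus strand: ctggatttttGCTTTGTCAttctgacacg
Srxn1, chr3:161064739-161064767, plus strand (AP-1 core): ctctgagggccTGAGTCAccacgctgtgc

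The authors had scaled the arrays to a near-equal mean, which left medians of 123.1 to 142.0. Levels below are log2(intensity + 16). Animal 43 had an unlike array: its mean correlation with the rest was 0.927, where the 42 others had 0.967 to 0.976, and its actin control probes differed by 1.97 from 3′ to 5′ end, where the others differed by 1.26 to 1.67. Results that rest on it are therefore given with and without it. All 4 genes listed as markers of lactotrophs, the cell type that DES expands, were tested, and their summed intensity ran from 54757 to 87378. In whole-gland RNA, fewer cells of a type and less RNA per cell cannot be told apart.

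Gsta4, a transferase that conjugates aldehydes from lipid peroxidation, varied far more between animals than the other genes. Its intensity ran from 171.1 in animal 7 through a median of 861.3 to 2431 in animal 36, a 14.2-fold range. The log2 level was 9.54 ± 1.03 (SD, n = 43), and this SD ranked 16 among 15521 probe sets tested. Animals 16, 43, 17, 6 and 20 followed animal 7 at the low end, with levels of 7.66 to 8.02, and animals 31, 29 and 41 followed animal 36 at the top, with 11.20, 11.06 and 10.94. The widest gap, 0.42, lay between 10.53 and 10.94 and left 4 animals above it. The values did not fall into separate clusters by the criterion used. It asked for means over 3 SDs apart and a Bayesian information criterion better by more than 10 for 2 components than for 1. The 2-component fit put 11 animals low and 32 high, with means 3.58 SDs apart, but its information criterion was only 3.1 better. Leaving out any 1 animal kept the SD between 0.99 and 1.04.

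The 2 mu-class transferases were less variable. Gstm1 ran from a log2 level of 8.68 in animal 3 through 9.76 to 10.27 in animal 18 (9.64 ± 0.39; SD, n = 43), a 3.09-fold range of intensity. Gstm2 ran from 7.49 in animal 17 through 8.50 to 9.08 in animal 41 (8.45 ± 0.37; SD, n = 43). Gstp1, the pi-class transferase, was bright and even in 42 animals, between 12.72 and 13.33, and stood at 11.90 in animal 43. Its SD was 0.22, or 0.15 without that animal, which formed a cluster of its own and was left out wherever Gstp1 was the regressor.

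Nqo1, the quinone reductase that is a standard NRF2 target, had the second largest SD of the 10 genes. It ran from 6.87 in animal 12 through 7.86 to 8.71 in animal 31 (7.85 ± 0.43; SD, n = 43), a 3.99-fold range of intensity.

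The subunits of glutamate-cysteine ligase had small spreads. Gclc, the catalytic subunit, ran from 8.51 in animal 41 through 8.92 to 9.41 in animal 19 (8.90 ± 0.21; SD, n = 43). Its other probe set had a level of 8.34 ± 0.21 and its own lowest animal, 17. The Gclc probe sets were only weakly related over the animals, with a Pearson r of 0.179 (permutation p = 0.253) and a Spearman rho of 0.338 (permutation p = 0.0271), and r was 0.311 without the 2 animals farthest from the median. Gclm, the modifier subunit, ran from 8.29 in animal 43 through 8.76 to 9.19 in animal 38 (8.75 ± 0.21; SD, n = 43).

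The enzymes of protein and peroxide reduction also varied little. Txnrd1, the cytosolic thioredoxin reductase, ran from 9.20 in animal 43 through 9.83 to 10.20 in animal 34 (9.82 ± 0.19; SD, n = 43), and its SD was 0.16 without animal 43. That animal was lowest by its second probe set too (9.30 ± 0.24). Srxn1, sulfiredoxin, which restores oxidised peroxiredoxins, ran from 10.07 in animal 35 through 10.38 to 10.93 in animal 14 (10.40 ± 0.17; SD, n = 43), and its second tested probe set had 9.09 ± 0.27. Gpx1, the selenium-containing glutathione peroxidase, ran from 13.10 in animal 27 through 13.51 to 13.81 in animal 30 (13.48 ± 0.19; SD, n = 43), a 1.65-fold range of intensity. Set among the 200 probe sets nearest in level, the SDs of Gsta4, Gstm1 and Nqo1 lay above the 90th percentile, at the 100th, 95th and 92.5th, as did 9.9% of all probe sets tested. Spread is what the genes were chosen for, so nothing is read from this count.

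**Figure D1:**
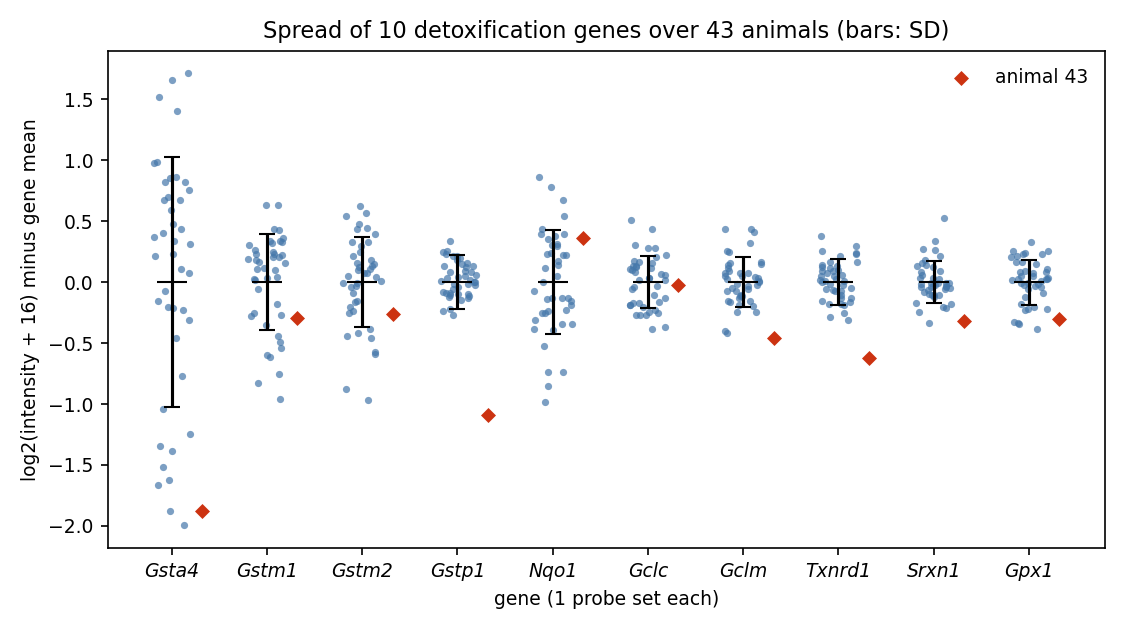
Log2(intensity + 16) of each gene minus the gene's mean (y axis) for the 10 genes (x axis), with 1 point per animal, a diamond for animal 43 and bars for the SD over 43 animals. The SD was 1.03 for Gsta4 and between 0.17 and 0.43 for the others, and animal 43 lay far below the other animals for Gstp1.

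Other genes of the pathway were taken from lists of 122 entries, of which 108 had a probe set and 84 were tested. Of these 84, 10 had an SD above the 90th percentile of probe sets of like level, a share near the 9.9% of all probe sets, so the count is no result about the list. Among them were Hmox1, heme oxygenase (8.30 ± 1.05; SD, n = 43), Slc40a1, the iron exporter ferroportin (8.87 ± 1.00), the microsomal transferase Mgst1 (10.01 ± 0.54) and the aldehyde dehydrogenase Aldh1a1 (8.24 ± 0.48).

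Neighbouring animal numbers had like values for many genes, although no label ties the numbers to weight, genotype or handling. A smooth curve over the numbers (natural spline with 6 degrees of freedom) took a median of 28.1% of the variance over all probe sets, and 39% of probe sets tested passed (limma F test, adjusted p under 0.05). Of the 10 genes, 7 passed. The share of variance was 53.1% for Gstm1 (adjusted p = 0.00039), 49.0% for Nqo1 (adjusted p = 0.0011), 45.9% for Gstm2 (adjusted p = 0.0026), 44.7% for Gclm (adjusted p = 0.0055), 44.2% for Srxn1 (adjusted p = 0.0085), 39.4% for Gstp1 (adjusted p = 0.014) and 34.4% for Gclc (adjusted p = 0.036). Without animal 43 the share for Gstp1 was 12.8% (adjusted p = 0.657), and the other 6 still passed. The second probe set of Gclc did not pass (9.21%, adjusted p = 0.754), nor did the second tested one of Srxn1 without animal 43 (22.3%, adjusted p = 0.252). Gsta4 did not pass (16.3%, adjusted p = 0.363), nor did Txnrd1 (28.1%, adjusted p = 0.105) or Gpx1 (23.3%, adjusted p = 0.195). Because the numbers carry so much variance, each relation below was refitted with this curve, and with a step between animals 22 and 23, as a covariate. The step leaves 22 and 21 animals on its sides, the same numbers as the heaviest and lightest animals. No label says whether the numbers follow weight, so weight and animal number cannot be told apart, and these fits may also remove differences tied to weight.

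**Figure D2:**
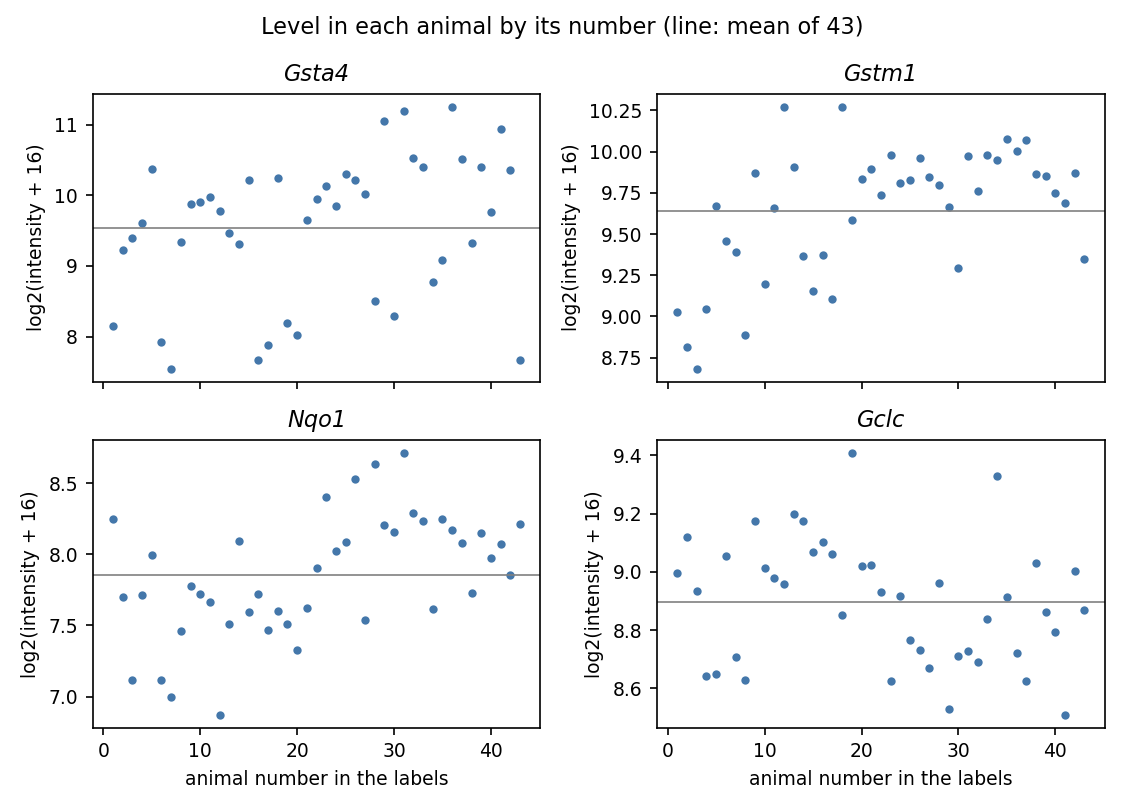
Log2(intensity + 16) (y axis) of Gsta4, Gstm1, Nqo1 and Gclc in each of 43 animals, by the animal number in the labels (x axis), with a line at the mean. The curve over numbers took 16.3% of the variance of Gsta4, 53.1% of Gstm1, 49.0% of Nqo1 and 34.4% of Gclc.

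It was next asked which genes varied with Gsta4 between animals. In the regression of every probe set on the Gsta4 level (limma, Benjamini-Hochberg over 15520 probe sets), 25 passed, 0.161% of those tested, 17 higher (0.11%) and 8 lower (0.0515%) with more Gsta4. With quantile normalization 15 were higher and 11 lower. None of the other 9 genes was among them, and 4 of the 9 had an unadjusted p under 0.05. None of the 84 tested pathway genes passed (23 at an unadjusted p under 0.05), and none of 62 tested marker genes of pituitary, vascular, blood and dividing cells did (11 at an unadjusted p under 0.05). Across all probe sets 1904 had an unadjusted p under 0.05.

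The values of the closest genes were as follows. Slopes are log2 units per log2 unit of Gsta4. The slope was 0.16 ± 0.05 (SE) for Gstm1 (adjusted p = 0.183), 0.14 ± 0.05 for Gstm2 (adjusted p = 0.226) and 0.16 ± 0.06 for Nqo1 (adjusted p = 0.236). It was 0.06 ± 0.03 for Gclm (adjusted p = 0.454) and 0.04 ± 0.03 for Txnrd1 (adjusted p = 0.625), and within ±0.02 for Gstp1, Srxn1 and Gpx1. Pearson's r with Gsta4 was 0.427 for Gstm1 (permutation p = 0.00395; rho 0.457, permutation p = 0.00197) and 0.389 for Nqo1 (permutation p = 0.00954; rho 0.407, permutation p = 0.00681). Without the 2 animals farthest from the Gsta4 median these r were 0.406 and 0.323. They are 2 of 97 relations for which r was computed, and neither gene passed in the regression on Gsta4. In the opposite regressions Gsta4 passed on Gstm1 (adjusted p = 0.047), but not without animal 43, with the step, with the curve or under other settings named below. It missed on Nqo1 (slope 0.94 ± 0.33, adjusted p = 0.0552) and passed there without animal 43 (adjusted p = 0.0241), but not with the step or the curve.

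Gclc lies beside Gsta4 on chromosome 8, with 4 protein-coding genes between them in the RefSeq order. Its main probe set had a slope of -0.10 ± 0.03 on Gsta4 (adjusted p = 0.130) and an r of -0.479 (permutation p = 0.00124; rho -0.525, permutation p = 0.00037), and r was -0.537 without the 2 farthest animals. Its other probe set had a slope of the opposite sign, 0.06 ± 0.03 (adjusted p = 0.457). Neither passed, so no direction is given for Gclc.

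The genes that did vary with Gsta4 made up a larger share of its own chromosome than of the others, a difference that was not tested. Of 524 tested genes on chromosome 8, 6 passed (1.15%), against 9 of 8845 on other chromosomes (0.102%). Plod2, a lysyl hydroxylase of collagen, ran from 8.34 through 9.76 to 10.50 and rose with Gsta4 by 0.48 ± 0.06 (SE; adjusted p = 5.1e-07). Low Plod2 animals were mostly low Gsta4 animals, with r = 0.787 and rho = 0.689 (permutation p = 1e-05 for each, the smallest that 100000 permutations can give), and r = 0.742 without the 2 farthest. Tmod3, which caps actin filaments, ran from 8.06 through 9.03 to 9.60 and rose by 0.26 ± 0.03 (adjusted p = 7.7e-06; r = 0.759 and rho = 0.686, permutation p = 1e-05 for each; r = 0.719 without the 2 farthest). Ibtk, an inhibitor of Bruton's tyrosine kinase, ran from 9.22 through 9.78 to 10.27 and went the other way, with a slope of -0.20 ± 0.03 (adjusted p = 1.3e-05; r = -0.758 and rho = -0.777, permutation p = 1e-05 for each; r = -0.715 without the 2 farthest).

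Tpbg, a trophoblast glycoprotein of the cell surface, rose by 0.23 ± 0.04 (adjusted p = 0.0016), Acad11, an acyl-CoA dehydrogenase, by 0.18 ± 0.03 (adjusted p = 0.0036) and Lingo1, a neuronal membrane protein, by 0.31 ± 0.06 (adjusted p = 0.0086). Lingo1 lost its call without the 2 animals farthest from the Gsta4 median (adjusted p = 0.074). In the order of tested genes, Tmod3 lay 9 places before Gsta4, Ibtk 14, Tpbg 15, Plod2 35 and Acad11 71 places after it, and Lingo1 114 places before it. Further probe sets of 2 chromosome 8 genes also passed, 1 of Slc9a9, a sodium-proton exchanger (slope -0.36 ± 0.06, adjusted p = 0.0018), and 1 of Myo5c, an unconventional myosin (slope 0.28 ± 0.05, adjusted p = 0.0018), which lost its call without the 2 animals farthest from the Gsta4 median (adjusted p = 0.0884). The brightest probe sets of these genes had slopes of 0.04 for Slc9a9 (adjusted p = 0.549) and 0.05 for Myo5c (adjusted p = 0.670), so no direction is given for either gene. Of the 20 tested genes nearest to Gsta4, 10 on either side, Tmod3 was the 1 that passed. The numbers on chromosome 8 were 6 genes called with the step, 8 with the curve over animal numbers, 8 without animal 43 and 5 without the 2 animals farthest from the Gsta4 median. On other chromosomes these fits called 2, 2, 14 and 4 genes. With normal scores of the Gsta4 level, 8 of 524 were called on chromosome 8 and 44 of 8845 on the others. With a stricter filter, 3 of 303 were called on chromosome 8 and 8 of 5140 on the others.

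**Figure D3:**
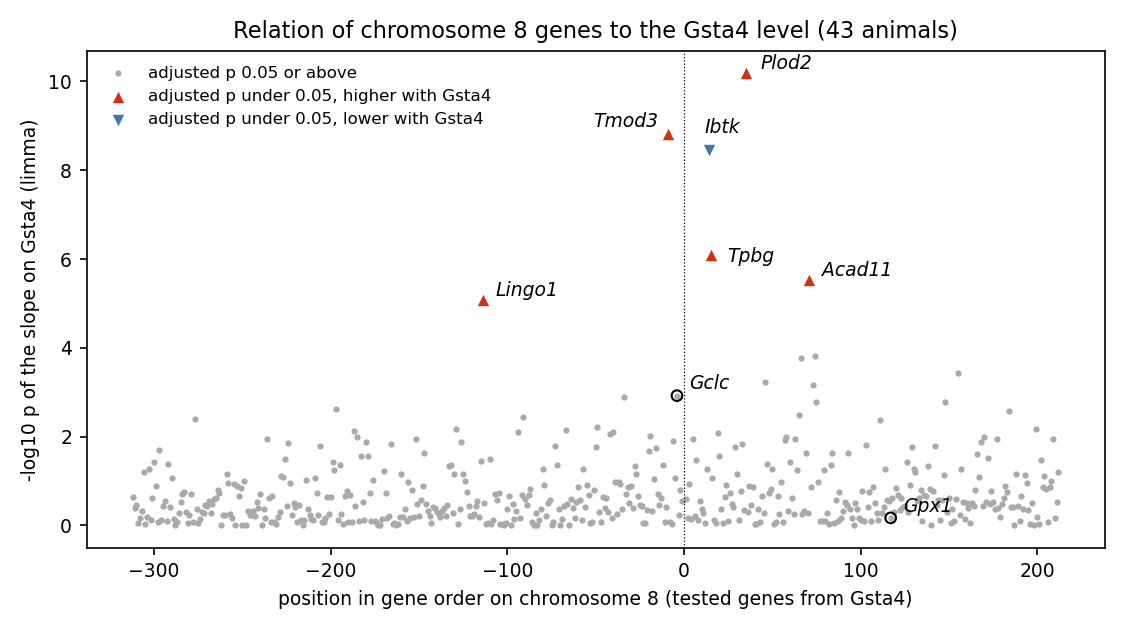
Tested genes of chromosome 8 by their place in the gene order counted from Gsta4 (x axis), against -log10 of the limma p of the slope on Gsta4 in 43 animals (y axis). Triangles mark the 6 genes with an adjusted p under 0.05, which lie between 114 places before and 71 places after Gsta4, and rings mark Gclc and Gpx1, which did not pass.

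**Figure D4:**
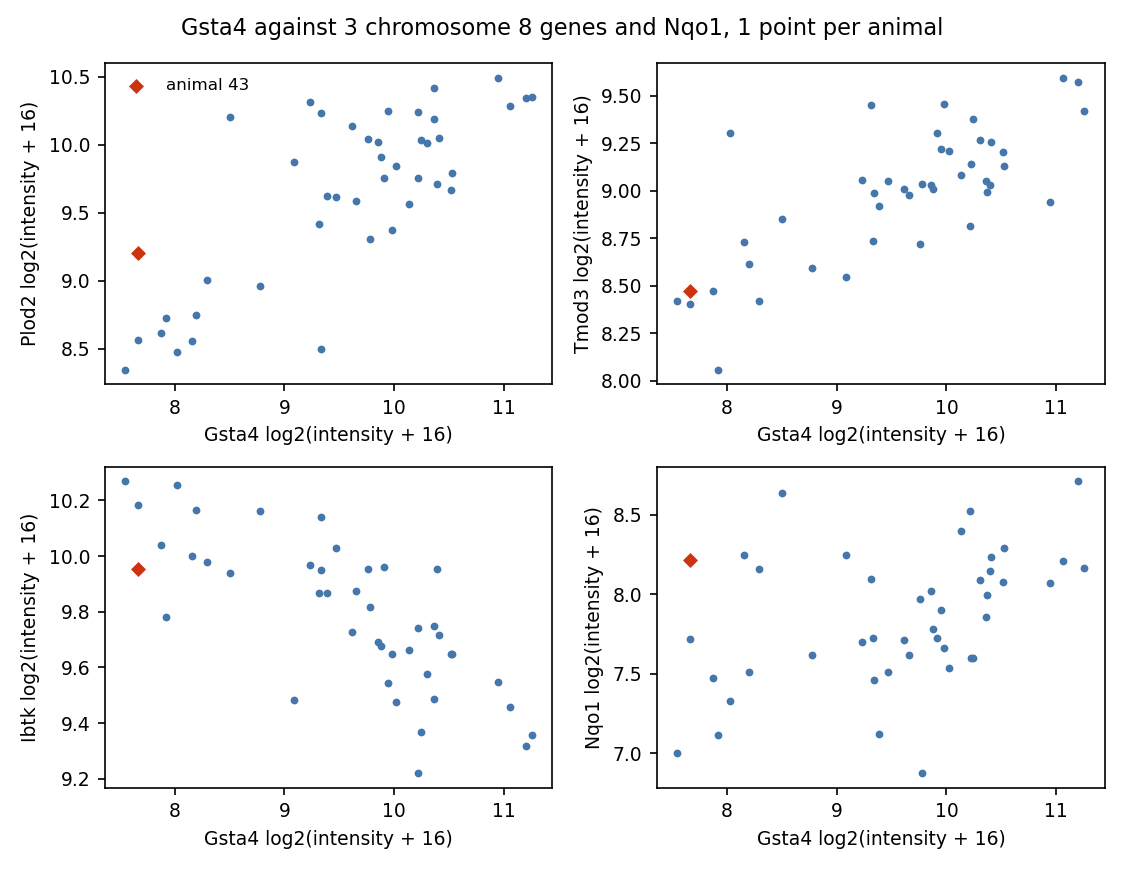
Log2(intensity + 16) of Plod2, Tmod3, Ibtk and Nqo1 (y axes) against that of Gsta4 (x axes), with 1 point per animal and a diamond for animal 43. Plod2 and Tmod3 rose and Ibtk fell with Gsta4 (r = 0.787, 0.759 and -0.758), while Nqo1 (r = 0.389) did not pass after adjustment.

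Of the 9 genes called on other chromosomes, Smim3, a small membrane protein, had a slope of -0.20 ± 0.03 on Gsta4 (adjusted p = 0.00018) and Gas6, the ligand of the TAM receptor kinases, one of 0.24 ± 0.04 (adjusted p = 0.0018). Slc12a2, the sodium-potassium-chloride cotransporter, had a slope of -0.12 ± 0.02 (adjusted p = 0.0033), and Ifit1, an interferon-induced gene, one of 0.32 ± 0.07 (adjusted p = 0.019). With the step as a covariate 2 of these chromosomes' genes were called, Smim3 (adjusted p = 0.00084) and Gas6 (adjusted p = 0.039), and with the curve 2. Slc12a2 and Ifit1 were not called with the step (adjusted p = 0.065 and 0.118). The curve over animal numbers took 57.3% of the variance of Gas6. The probe set closest to Gsta4 of all has no gene name here and is given because of its value (slope 0.68 ± 0.07, adjusted p = 1.5e-08).

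The 10 genes were then set against each other. Of 45 pairs, 1 passed in both directions, Gstm1 with Gstm2, which are adjacent on chromosome 2 with no gene between them. In the regressions on Gstm1 and Gstm2, 923 (5.95%) and 848 (5.46%) of all probe sets passed. With the step these were 307 (1.98%) and 123 (0.793%), and with the curve 41 (0.264%) and 14 (0.0902%). The slope of Gstm2 on Gstm1 was 0.69 ± 0.10 (SE; adjusted p = 4.8e-06) and that of Gstm1 on Gstm2 was 0.78 ± 0.11 (adjusted p = 1.0e-05), with r = 0.734 and rho = 0.696 (permutation p = 1e-05 for each; r = 0.669 without the 2 farthest). With the step it still passed (adjusted p = 6.1e-04 and 0.0019), and with the curve over animal numbers it did not (adjusted p = 0.075 and 0.069). The mu-class genes are close copies of each other, and whether their probe sets share signal was not tested. Gsta4 passed in the regression on Gstm1 (slope 1.12 ± 0.35, adjusted p = 0.047), but not without animal 43, with the step or with the curve. Nor did it pass with quantile normalization, array medians subtracted, no filter on dim probe sets, array quality as covariates or normal scores of Gstm1. Gstm1 did not pass in the regression on Gsta4, so this pair is not counted.

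Gclc and Gclm, the subunits of 1 enzyme, had an r of -0.0578 (permutation p = 0.714; rho -0.105, permutation p = 0.502; r = -0.110 without the 2 farthest). Nqo1 with Txnrd1 had an r of -0.0015 (permutation p = 0.992; rho 0.0509, permutation p = 0.745), and Gstp1 with Gclm, both with an antioxidant response element core in their windows above, one of 0.0878 in 42 animals (permutation p = 0.581; rho 0.106, permutation p = 0.501). None of these pairs passed. Gstp1 passed in the regression on Txnrd1 (slope 0.50, adjusted p = 0.025), but it did not without animal 43, which was the lowest animal for both.

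Animals with more Gstm1 had more of several other detoxification enzymes. Of the 84 pathway genes, 15 were higher and 2 lower with Gstm1, against 4.03% and 1.92% of all probe sets in those directions (625 and 298 probe sets). Scaling moved this split: with each array's median subtracted, 364 of all probe sets were higher and 439 lower, and 11 and 3 of the pathway genes. The quinone, aldehyde and heme list held 7 of the 15, out of 16 tested: the aldehyde dehydrogenase Aldh1a1 rose by 0.93 ± 0.12 per log2 unit of Gstm1 (SE; adjusted p = 1.4e-06), Aldh2 by 0.69 ± 0.10, Aldh3a1 by 0.64 ± 0.12 and the epoxide hydrolase Ephx1 by 0.40 ± 0.07, and Aldh3a2, Aldh9a1 and the sulfotransferase Sult1a1 rose as well. Of 16 other glutathione transferases 5 rose, Mgst1, Gstt3, Gstm7, Gstm5 and Gstk1, with slopes of 0.43 to 0.79, and Hpgds, the hematopoietic prostaglandin D synthase, fell, with a slope of -0.74 ± 0.14. Slc40a1 fell too, with a slope of -1.63 ± 0.29. With the step 7 were higher and 2 lower, and with the curve 4 were higher and none lower, Aldh1a1, Aldh2, Aldh3a1 and Ephx1.

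Markers of other cell types moved with Gstm1 as well. Of 6 tested markers of folliculostellate and stem cells, the supporting cells of the gland, 5 rose: S100b by 0.68 ± 0.10 (adjusted p = 5.5e-06), Sox2 by 0.79 ± 0.13, and Anxa1, Fxyd1 and Vim. The summed intensity of the 7 measured genes of that list ran from 1888 through 3328 to 4227, and none was at 0. With the step 3 of the 6 still passed, and with the curve 1, S100b. Of 5 gonadotroph markers 4 rose (Fshb, Gnrhr, Nr5a1 and Cga; summed intensity 17522 to 55828), and none of them passed with the step or the curve. Of 11 macrophage and leukocyte markers 1 rose and 3 fell, among them Mrc1 (slope -0.90 ± 0.15; summed intensity 8529 to 22010). Also higher were 2 of 5 somatotroph, 2 of 5 endothelial and 1 of 2 thyrotroph markers. So were 1 of 3 fibroblast and matrix and 1 of 3 posterior lobe and neural markers. None of 4 lactotroph, 3 erythroid and 14 proliferation markers passed, nor did the 1 corticotroph and melanotroph marker. Of all probe sets 4.03% were higher and 1.92% lower with Gstm1. The part of these cells in the relation was not tested. The leading genes outside the lists were Cnn3, a calponin (slope 0.77 ± 0.07, adjusted p = 1.8e-10), Fam107a (0.83 ± 0.09) and Plekhb1 (0.89 ± 0.10), all 3 also called with the step and with the curve. Next to Gstm1 in the gene order, 5 of 20 tested neighbours passed, Gstm2, Gstm7 and Gstm5 higher and Kcna2 and Taf13 lower, against 9.65% of tested genes on chromosome 2. With the step Gstm2 and Taf13 (adjusted p = 0.0248) still passed, and with the curve none of the 5 did.

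Gstm2 gave a like picture on the same animals. With Gstm2, 16 of 84 pathway genes were higher and 4 lower, against 3.99% and 1.48% of all probe sets (619 and 229). Of the quinone, aldehyde and heme list, again 7 of 16 were higher. So were 5 of 6 folliculostellate and stem cell markers, 4 of 5 gonadotroph, 2 of 5 somatotroph and 2 of 5 endothelial markers. Of the others, 1 of 2 thyrotroph, 1 of 3 fibroblast and matrix and 1 of 3 posterior lobe and neural markers were higher. Of 11 macrophage and leukocyte markers 1 was higher and 1 lower, and 1 of 14 proliferation markers was lower. With array medians subtracted, 316 of all probe sets were higher and 284 lower, and 9 and 4 of the pathway genes. With quantile normalization these were 434 and 265, and 12 and 4. With the step 3 pathway genes were higher and none lower. The marker calls above are from the fit without a covariate. Of all probe sets 123 (0.793%) passed with the step and 14 (0.0902%) with the curve. The leading genes of Gstm2 were Igfbp5, a binding protein of insulin-like growth factors (slope 0.81 ± 0.10, adjusted p = 2.7e-06), Mpzl2 (1.07 ± 0.14) and Rbpms (0.84 ± 0.11). All 3 passed with the step, and with the curve Mpzl2 and Rbpms did (adjusted p = 0.0464 for each) while Igfbp5 did not (adjusted p = 0.0648).

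The relations of Nqo1 were lost once animal numbers were a covariate. In its regression 11.2% of all probe sets passed, with the step none did (limma), and with the curve 1 did. Without a covariate, 16 of 84 pathway genes were higher and 5 lower, against 5.53% and 5.66% of all probe sets (858 and 879; with array medians subtracted 622 and 1218), and 9 of 16 other glutathione transferases were higher, among them Gstt3 (slope 0.56 ± 0.11, adjusted p = 0.0011). Nfe2l2, which encodes NRF2, was 1 of the 16 (slope 0.29 ± 0.06, adjusted p = 6.6e-04; r = 0.639 and rho = 0.635, permutation p = 3e-05 for each; r = 0.614 without the 2 farthest). With the step its adjusted p was 0.760, and with the curve 0.420. Of 5 gonadotroph markers 4, of 5 somatotroph markers 3 and of 5 endothelial markers 3 were higher with Nqo1, with summed intensities of 17522 to 55828, 17762 to 54145 and 2894 to 4659. Of the other lists, 2 of 3 erythroid markers (Hbb and Alas2; summed intensity 5776 to 46701), 2 of 6 folliculostellate and stem cell markers (Aldh1a2 and Anxa1) and Tshb of the thyrotrophs were higher, while Drd2, 1 of 4 lactotroph markers, and Pcsk2, the 1 tested marker of corticotrophs and melanotrophs, were lower. Also higher were 1 of 11 macrophage and leukocyte, 1 of 3 fibroblast and matrix and 1 of 3 posterior lobe and neural markers. Of 14 proliferation markers 1 was lower. No probe set at all passed with the step, so none of these markers could be among those called, and their part was not tested. Its leading genes were Pdlim3 (slope 0.62 ± 0.08, adjusted p = 5.5e-06), Serpinb1a (0.78 ± 0.10) and Cmtm7 (-0.48 ± 0.07), none of which passed with either covariate.

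**Figure D5:**
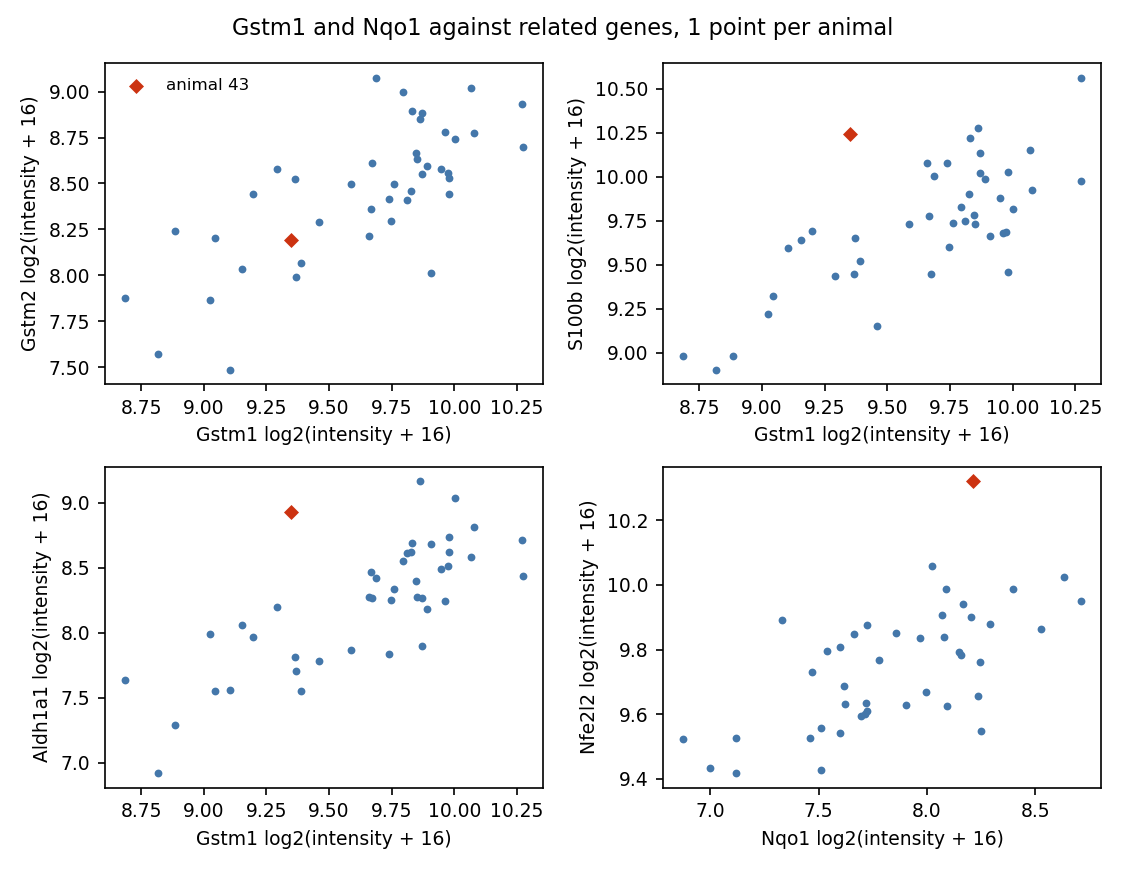
Log2(intensity + 16) of Gstm2, S100b and Aldh1a1 against that of Gstm1, and of Nfe2l2 against that of Nqo1, with 1 point per animal and a diamond for animal 43. All 4 rose together (r = 0.734, 0.731, 0.752 and 0.639), and the relation of Nfe2l2 to Nqo1 did not pass with animal numbers as a covariate.

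The remaining genes had few relations that held. In the regression on Txnrd1 24.7% of probe sets passed (3839), but 50 did without animal 43 and none without the 2 animals farthest from the Txnrd1 median. On Srxn1 10.7% passed (1654), 332 without animal 43 and 4 with the step. On Gclm 2.23% passed (346), 1.69% higher and 0.541% lower, with 5.67% (880) passing with the step, 0.0258% (4) with array quality as covariates and none with the curve. Without animal 43, the lowest for Gclm, 335 passed, of which 147 were among the 346. With the step and without animal 43, a fit chosen after seeing the data, 1 did. With array medians subtracted the split was 164 higher and 11 lower for Gclm, against 262 and 84, and 1213 higher and 479 lower for Srxn1, against 825 and 829. With quantile normalization it was 31 and 20 for Gclm and 201 and 369 for Srxn1. On Gstp1 and on Gclc none passed (limma; 1111 and 1905 at an unadjusted p under 0.05), and on Gpx1 1 did (0.00644%), in the lower direction. Of the 84 pathway genes, 9 were higher and 12 lower with Txnrd1, against 14.4% and 10.3% of all probe sets, and 5 were higher and 7 lower with Srxn1, against 5.32% and 5.34%. Without animal 43 these counts were 0 and 0 for Txnrd1 and 1 and 1 for Srxn1.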

How the data were processed

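Per the labels, RNA of the anterior pituitary of 43 animals was labelled with biotin, 1 array each. For each array the deposited values are 1 intensity per probe set, scaled by the authors so that the mean without the lowest and highest 2% was 500.17 to 500.22 on each. Summarising software and genome build are not given in the sources used here. To these values, kept as scaled, 16 was added and log2 taken. Probe sets with a mean above the median of all non-control ones (7.16) were tested, 15521 in all. A gene is named where the platform annotation gives 1 symbol, which 20826 probe sets have, 436 having several and 9780 none. Gene order is from RefSeq (GRCr8), in which 99.6% of their gene identifiers were found. The number of arrays limits precision.

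Every tested probe set was regressed on each of the 10 genes with limma 3.58.1 (lmFit, eBayes) in R 4.3.3, with Benjamini-Hochberg adjustment over all and a threshold of 0.05. Permutation p-values are 2-sided (100000 permutations, numpy 2.4.6, with ranks from scipy 1.17.1). Alternatives changed the pseudocount, filter, scaling, animals or covariates (array quality, animal numbers) 1 at a time. Animals forming a cluster under 6 (mclust 6.1.1) were left out of a regressor. On simulated data of 15520 probe sets the regression on Gsta4 recovered 100% of slopes of 1 residual SD and 42% of 0.5 SD, with 7 false calls. The simulated noise was independent between probe sets, without a trend over animal numbers or an unlike array, so these rates need not hold here. The genes and lists were chosen with earlier results of these data known. Named are the 10 genes, part of the called list genes and the 10 genes outside the lists with the largest moderated t on Gsta4. Also named are the 3 with the largest moderated t on each of Gstm1, Gstm2 and Nqo1, and the called neighbours of Gsta4 and Gstm1. The called neighbours of Gstm2 (3 of 20), Nqo1 (1 of 20), Txnrd1 (3 of 20) and Srxn1 (3 of 20) are not listed. Of all tested genes on the chromosomes of these 4, 8.52%, 9.49%, 26.8% and 11.8% passed. p-values are judged against the spread between these animals. Permutations shuffled all animals freely, although 39% of probe sets tested followed a curve over animal numbers, so permutation p-values take no account of that trend.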

Additional observations from a re-analysis of the deposited data

How the results depend on the processing

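No called result changed direction under the alternatives run, but the split of calls into higher and lower moved with the scaling, as given above, and the slope of Gstp1 on Gsta4, which did not pass, went from 0.013 to -0.037 without animal 43, and other slopes near 0 also changed sign. The count of probe sets that varied with Gsta4 (25) was 15 with no filter on dim probe sets, 39 without replicate 43, 16 with the step between animals 22 and 23, 85 with normal scores of the Gsta4 level and 16 without the 2 animals farthest from its median. It lay between 17 and 26 under the other settings tried. Of the 25, 22 remained without animal 43, 15 with the step and 14 with the curve over animal numbers. In a fit chosen after seeing the data, with the step and without animal 43, 16 passed. The pairs called in both directions (1) were 0 with a stricter filter, which removes Gstm2 from the genes tested, 0 with the curve over animal numbers, and 2 with no cluster rule, also chosen after seeing the data, which adds Gstp1 with Txnrd1 through animal 43. The probe sets with a trend over animal numbers (6056) were 3843 without replicate 43 and 5832 without replicate 38. The cause of these differences was not tested. None of the other 9 genes was called on Gsta4 in any alternative run in which it was tested. With the stricter filter Gstm2, Nqo1, Gclc and Gclm were not tested. Of the SDs of the 10 genes that of Gstp1 depended on animal 43, at 0.22 with it and 0.15 without. Gsta4 has 1 probe set, so no other could be its regressor. No paired analysis was possible because all animals are 1 group. Dim probe sets, such as the third of Srxn1, are limited by signal over background.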
